A study of Bos taurus with 29 samples.

Results

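The genes described here encode securin (PTTG1), separase (ESPL1), and the anaphase promoting complex with its activators and inhibitors. They are CDC20 and FZR1, which activate the complex, FBXO5 and FBXO43, which inhibit it, and ANAPC1, ANAPC4, CDC16 and CDC27, which are subunits of it. They were chosen by name, with earlier results of these data known, as 10 of the 13502 gene rows of the deposited table, and all 10 had a row.

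Messenger RNA was measured in single wild-type (WT) cattle oocytes from donors treated with FSH. Germinal vesicle (GV) oocytes were freed of their cumulus cells when they were collected, before meiosis resumed. IVM oocytes were cultured for 22 h inside their cumulus cells with epidermal growth factor and FSH. CNP_IVM oocytes had a step of 6 h before those 22 h, in medium with CNP at 200 nM and without epidermal growth factor. CNP is C-type natriuretic peptide, made by granulosa cells, which delays the resumption of meiosis. Both cultured groups were taken at metaphase II, judged by a polar body. The table held 7 of 9 labelled GV oocytes, 8 of 10 IVM oocytes and 7 of 10 CNP_IVM oocytes, and the other 7 samples were not analysed here. CNP_IVM oocytes spent 28 h in culture in all, so CNP and the longer culture cannot be told apart. No label ties an oocyte to a donor or a culture, and each group was therefore counted as 1 sample, with no test. Means ± SD, ranges and overlaps describe the spread between these oocytes and not between animals. The share of all genes whose groups do not overlap was not taken, so no gap between groups is shown to be unusual.

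The anaphase promoting complex is a ubiquitin ligase that marks proteins for destruction when chromosomes are to separate. Securin holds separase inactive. Once the complex with CDC20 has marked securin and B-type cyclins, separase cuts the cohesin rings that hold chromosomes together, in meiosis I along the arms and in meiosis II at the centromeres. A vertebrate oocyte then stops at metaphase II, where FBXO43 keeps the complex inactive until fertilisation. In mouse oocytes the complex with FZR1 also restrains entry into meiosis by removing cyclin B1 during GV arrest.

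Values are reads of a gene per 1000000 reads of its library (CPM), from library totals of 20159662 to 39340040 reads. A level is a share of an amplified library primed on poly(A), so the amount of a transcript, the state of its poly(A) tail and the amount of all other transcripts cannot be told apart. Values are not divided by transcript length, and levels of different genes are therefore not ranked against each other. A difference is the log2 ratio of group means, each with 1 CPM added, and a gene is counted as higher or lower where this passes 2-fold. A filter of 1 CPM or more in 6 or more libraries kept 11852 genes, all 10 described here among them, and over these the median log2 difference was -0.28 between IVM and GV, -0.61 between CNP_IVM and GV, and -0.28 between CNP_IVM and IVM. Scaling by trimmed means of M-values (TMM) moved these medians to -0.05, -0.13 and -0.05, and quantile normalization moved them to 0.18, 0.18 and 0.01. With TMM, the share of higher genes among those past 2-fold went from 32.4 to 43.9% for IVM and GV, from 26.8 to 43.4% for CNP_IVM and GV, and from 11.1 to 31.5% for the matured groups.

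GV replicate 9 stood apart from its group. Its title is GV, while its treatment label is in vitro maturation, and it was grouped by title. It had 9381 genes at 1 CPM or more, against 11311 to 11798 in the other GV oocytes. All 13 oocyte markers examined (among them ZP2, ZP3, GDF9 and BMP15) had reads in every oocyte, and their summed level ran from 13167 to 22281 CPM in GV, from 8618 to 14078 CPM in IVM and from 6028 to 8404 CPM in CNP_IVM oocytes. Of 18 cumulus and granulosa cell markers, 14 had a row, and their summed level was 626 to 1118 CPM in GV, 363 to 646 CPM in IVM and 238 to 332 CPM in CNP_IVM oocytes. AMH, AMHR2, FOXL2 and KRT18 had no row, and CYP11A1 and FSHR did not exceed 1.6 CPM in any oocyte. STAR alone averaged 657 CPM in GV, 316 in IVM and 93.9 in CNP_IVM oocytes, of mean sums of 800, 499 and 272 CPM. HAS2 went the other way, at 16.3, 77.1 and 118 CPM, as did PTGS2, at 13.4, 38.0 and 37.6 CPM. Of 10 such markers past the filter, 2 were higher and 4 lower in IVM against GV (15.9 and 33.0% of all genes). In CNP_IVM against GV, 2 were higher and 5 lower (15.3 and 42.0% of all genes). Of 10 markers of blood and endothelium, 5 had a row, with summed levels of 173 to 362 CPM in GV, 8.42 to 46.8 CPM in IVM and 3.53 to 25.7 CPM in CNP_IVM oocytes. Most of this sum was VWF, which averaged 225, 21.1 and 11.2 CPM, and CD3E, at 29.4, 3.55 and 1.27 CPM. PECAM1, CD68 and HBA averaged under 1 CPM in every group, and PECAM1 went the other way, at 0.139, 0.523 and 0.192 CPM. These sums move with the groups compared here, and their part in the results was not tested.

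Of the 10 genes, 5 were higher in IVM than in GV oocytes, beside 15.9% of all genes examined: FBXO5, FBXO43, ANAPC1, ANAPC4 and CDC27. FZR1 was the 1 gene lower, beside 33.0% of all genes, and the median log2 difference of the 10 was 1.00. Against GV, CNP_IVM oocytes had 5 higher (15.3% of all genes), which were PTTG1, FBXO5, FBXO43, ANAPC4 and CDC27. FZR1 was again the 1 gene lower (42.0% of all genes), and the median was 1.10. Between the matured groups, PTTG1 was the 1 gene higher in CNP_IVM (1.86% of all genes) and CDC20 the 1 gene lower (14.8% of all genes), with a median of 0.06. The comparisons share oocytes, 2 of them the GV oocytes. Since the 10 genes were chosen with earlier results of these data known, their shares and medians are a description only. They hold 4 of the 14 subunits. Over all 14, 4 were higher and 4 lower in IVM against GV, and 3 higher and 6 lower in CNP_IVM. Without GV replicate 9, ANAPC4 passed 2-fold in CNP_IVM but not in IVM, which left 4 genes higher in IVM and 5 in CNP_IVM.

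**Figure D1:**
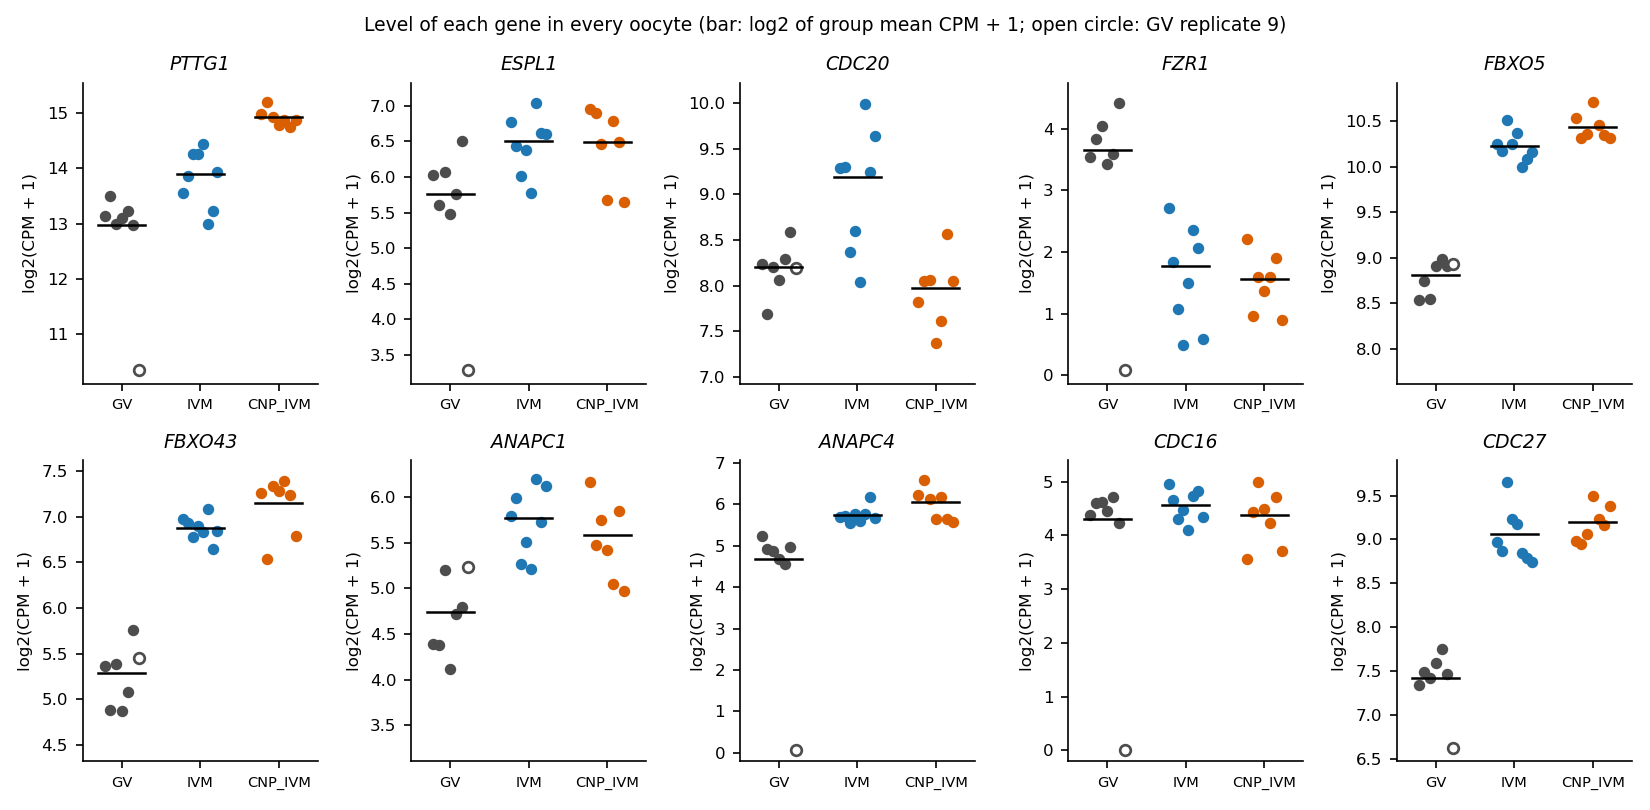
Level of each of the 10 genes in every oocyte on a log2(CPM + 1) scale whose range differs between panels, with GV replicate 9 as an open circle and a bar at the log2 of the group mean plus 1 CPM. FBXO5, FBXO43, ANAPC4 and CDC27 have all matured oocytes above all GV oocytes, PTTG1 has all 7 CNP_IVM oocytes on top, and FZR1 has its matured oocytes low. The share of all genes with such gaps was not taken.

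Of the 10 genes, securin was the one whose messenger RNA lay higher in all CNP_IVM oocytes than in all oocytes of both other groups. PTTG1 had a lowest, median and highest level of 1301, 8826 and 11580 CPM in GV oocytes, of 8158, 15274 and 22332 CPM in IVM oocytes and of 27601, 30165 and 37674 CPM in CNP_IVM oocytes. Every CNP_IVM oocyte was above every IVM and every GV oocyte, while the IVM and GV ranges overlapped at 8158 to 11580 CPM, where 2 of the 8 IVM oocytes lay. The means were 8081 ± 3217 (SD, n = 7), 15222 ± 5067 (n = 8) and 31069 ± 3346 CPM (n = 7). PTTG1 thus took on average 0.808% of all reads in GV, 1.52% in IVM and 3.11% in CNP_IVM oocytes. Summed over the oocytes of a group it had 1741888, 3856196 and 8165414 reads.

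Against GV, the log2 difference of PTTG1 was 0.91 in IVM and 1.94 in CNP_IVM (0.70 and 1.03 with quantile normalization), and between the matured groups it was 1.03. The last lies just past 2-fold. It was 1.23 with TMM and 0.33 with quantile normalization, and it was under 2-fold without CNP_IVM replicate 2 or without IVM replicate 1, 8 or 9. The GV oocyte at 1301 CPM is replicate 9, and the other 6 were at 8030 to 11580 CPM. Without it, the differences from GV were 0.72 for IVM and 1.75 for CNP_IVM.

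Separase messenger RNA did not share this pattern. ESPL1, the protease that securin restrains, had 8.75, 53.1 and 89.6 CPM as lowest, median and highest level in GV, 53.8, 90.5 and 129.6 CPM in IVM and 49.2, 88.5 and 122.8 CPM in CNP_IVM oocytes. All 3 ranges overlapped, and the means of the matured groups were 89.3 ± 24.1 and 89.2 ± 30.2 CPM. The log2 difference from GV was 0.73 in both, under 2-fold, and 0.55 in both without GV replicate 9. In CNP_IVM against GV it was 1.25 with TMM and 1.15 with quantile normalization, past 2-fold.

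A few ratios of 2 genes within a library, with 1 CPM added to both, were taken after the values had been seen. Apart from that 1 CPM, a scaling factor per library, such as TMM, leaves such a ratio as it is, while quantile normalization can change it. With quantile normalization the log2 difference in CNP_IVM against IVM was 0.33 for PTTG1, 0.19 for ESPL1, -0.50 for CCNB1 and -1.11 for CDC20. The log2 ratio of PTTG1 to ESPL1 averaged 7.23 ± 0.48 in GV, 7.37 ± 0.89 in IVM and 8.50 ± 0.48 in CNP_IVM oocytes. It ran from 5.96 to 8.67 in IVM and from 8.03 to 9.23 in CNP_IVM oocytes, so the groups overlapped. CCNB1 encodes cyclin B1, the other main target of the complex at anaphase. The log2 ratio of PTTG1 to CCNB1 was 2.52 ± 0.87 in GV oocytes (2.83 ± 0.33 without replicate 9). It was 2.46 ± 0.55 in IVM (1.44 to 3.12) and 3.82 ± 0.25 in CNP_IVM oocytes (3.57 to 4.26), with no overlap between the matured groups.

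The activators differed from securin and from each other. CDC20, the activator at anaphase, had 206, 295 and 385 CPM as lowest, median and highest level in GV, 263, 616 and 1017 CPM in IVM and 164, 264 and 378 CPM in CNP_IVM oocytes. GV and CNP_IVM oocytes covered nearly the same range, and 6 of the 8 IVM oocytes were above every GV oocyte. The 3 IVM oocytes lowest in CDC20, at 263, 329 and 386 CPM, were inside or at the edge of that range. Group means were 294 ± 53.5, 582 ± 252 and 251 ± 68.3 CPM, the widest spread being that of IVM oocytes.

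CDC20 had a log2 difference of 0.98 between IVM and GV, of -0.22 between CNP_IVM and GV, and of -1.21 between CNP_IVM and IVM. With TMM these were 1.23, 0.34 and -0.89, so that the first passed 2-fold, the second turned its sign and the third was under 2-fold. GV replicate 9, at 292 CPM, lay in the middle of its group for this gene.

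Within IVM the 3 oocytes highest in securin were low in CDC20. IVM replicates 5, 6 and 7 had the 3 highest PTTG1 levels of that group (19541, 19533 and 22332 CPM) and its 3 lowest CDC20 levels (329, 386 and 263 CPM). IVM replicate 8 had the lowest PTTG1 level (8158 CPM), the highest CDC20 level (1017 CPM) and the highest ESPL1 level (129.6 CPM). The other IVM oocytes did not follow this order. Replicate 10 had 15741 CPM of PTTG1 and 796 CPM of CDC20, both above the levels in replicates 1, 3 and 9. Replicates 5, 6 and 7 were also the IVM libraries with the fewest genes at 1 CPM or more, at 9460, 9817 and 9431 against 10400.0 to 10783, and so were nearest to the CNP_IVM libraries, at 9429 to 9834. Its part in the levels was not tested. The log2 ratio of PTTG1 to CDC20 was 5.89, 5.66 and 6.41 in these 3 oocytes, 3.0 to 4.55 in the other 5 IVM oocytes and 6.19 to 7.42 in CNP_IVM oocytes. The mean ratio was 4.68-fold higher in CNP_IVM than in IVM, with 1 IVM oocyte, replicate 7, inside the CNP_IVM range.

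**Figure D2:**
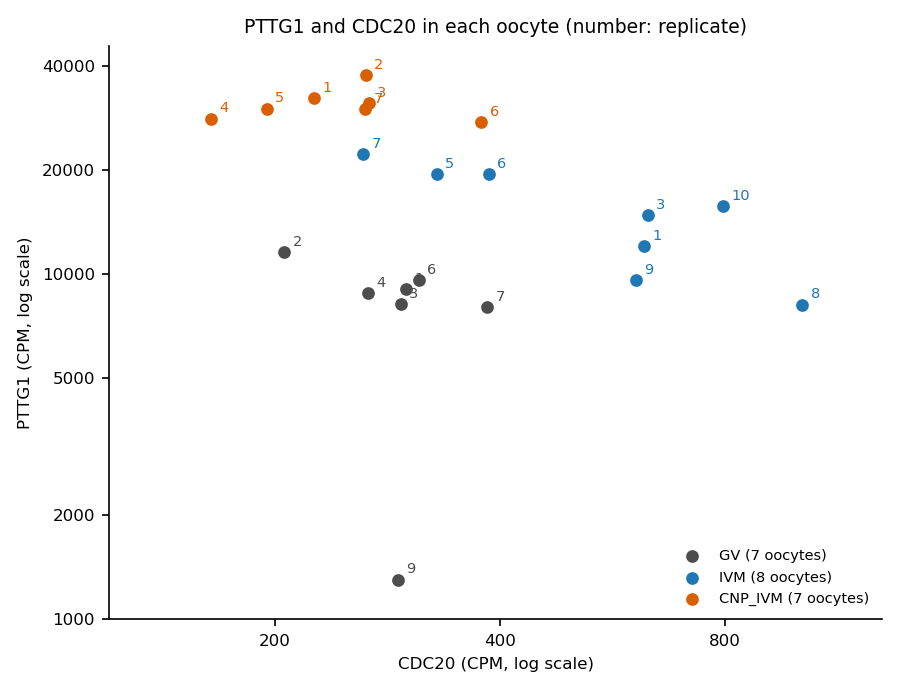
Level of PTTG1 (vertical) against CDC20 (horizontal) in each of the 22 oocytes, both in CPM on log scales, with replicate numbers beside the points. CNP_IVM oocytes lie at the upper left, IVM oocytes run from the upper left (5, 6 and 7) to the lower right (8), and GV replicate 9 lies alone at the bottom with 1301 CPM of PTTG1.

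FZR1, the activator outside anaphase, was low in every group and lower after maturation. Its lowest, median and highest level was 0.0545, 11.1 and 20.5 CPM in GV, 0.405, 2.2 and 5.56 CPM in IVM and 0.868, 2.01 and 3.62 CPM in CNP_IVM oocytes. The lowest GV value is that of replicate 9, with 2 reads. The other 6 GV oocytes had 9.78 CPM or more, above every matured oocyte. With all oocytes of a group pooled, FZR1 had 2525 reads in GV (11.4 CPM, exact 95% Poisson interval 10.9 to 11.8), 664 in IVM (2.51 CPM, 2.33 to 2.71) and 518 in CNP_IVM (1.97 CPM, 1.81 to 2.15), and these intervals cover counting error only. FZR1 had the fewest reads of the 10 genes, and the pooled levels of the other 9 had narrower intervals for their size. The log2 difference was -1.88 in IVM and -2.08 in CNP_IVM against GV, and -2.09 and -2.29 without GV replicate 9. With quantile normalization it was -1.39 and -1.11. Between the matured groups it was -0.20, and the sign turned with TMM (0.06) and with quantile normalization (0.28).

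Both inhibitors were higher in all matured oocytes than in all GV oocytes. FBXO5 (also called EMI1), the inhibitor that lets cyclins build up before M phase, had 369, 481 and 508 CPM as lowest, median and highest level in GV, 1020.1, 1181 and 1455 CPM in IVM and 1267, 1307 and 1671 CPM in CNP_IVM oocytes. The log2 difference from GV was 1.42 in IVM and 1.63 in CNP_IVM. FBXO43 (EMI2), the inhibitor of metaphase II arrest, had 28.2, 40.2 and 53.0 CPM in GV, 99.0, 116 and 135 CPM in IVM and 91.9, 152 and 167 CPM in CNP_IVM oocytes. Its log2 difference from GV was 1.60 in IVM and 1.86 in CNP_IVM.

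GV replicate 9 lay within the range of the other GV oocytes for both inhibitors, at 486 CPM of FBXO5 and 42.7 CPM of FBXO43. Leaving it out moved the 4 differences to 1.45, 1.65, 1.62 and 1.89. Between the matured groups the inhibitors overlapped, with log2 differences of 0.21 for FBXO5 and 0.27 for FBXO43. For FBXO43, 5 of 7 CNP_IVM oocytes were above every IVM oocyte and 1, replicate 2, was below every IVM oocyte. The log2 ratio of FBXO43 to FBXO5 averaged -3.54 ± 0.39 in GV, -3.35 ± 0.24 in IVM and -3.31 ± 0.28 in CNP_IVM oocytes, with overlapping ranges.

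The 4 subunits did not move alike. CDC27, which binds the activators, had 97.5, 175 and 214 CPM as lowest, median and highest level in GV, 426, 483 and 803 CPM in IVM and 491, 573 and 720 CPM in CNP_IVM oocytes. All matured oocytes lay above all GV oocytes, and the log2 difference was 1.65 in IVM and 1.78 in CNP_IVM. ANAPC4, a scaffold subunit, had 0.0545, 28.3 and 36.9 CPM in GV, 45.9, 51.4 and 71.2 CPM in IVM and 46.8, 69.1 and 95.4 CPM in CNP_IVM oocytes. The groups again did not overlap with GV. The log2 difference of ANAPC4 from GV was 1.08 in IVM and 1.37 in CNP_IVM, and without GV replicate 9, which had 2 reads, it was 0.86 and 1.15.

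ANAPC1, the largest subunit of the human complex and its central scaffold, had 16.4, 25.3 and 36.5 CPM in GV, 36.0, 53.2 and 72.6 CPM in IVM and 30.4, 43.6 and 71.0 CPM in CNP_IVM oocytes. Here GV replicate 9 was the highest GV oocyte, at 36.5 CPM, and without it every IVM oocyte was above every GV oocyte. The log2 difference of ANAPC1 was 1.02 in IVM against GV, which lies at the edge of 2-fold and ran from 0.94 to 1.12 when 1 oocyte was left out, and was under 2-fold without GV replicate 1, 2 or 4 or without IVM replicate 3, 8 or 10. In CNP_IVM against GV it was 0.84, and past 2-fold with TMM (1.40) and with quantile normalization (1.47).

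CDC16, a structural neighbour of CDC27 in the complex, did not pass 2-fold against GV. It had 0, 20.8 and 25.4 CPM in GV, 16.2, 22.7 and 29.9 CPM in IVM and 10.8, 20.7 and 31.0 CPM in CNP_IVM oocytes, and all 3 ranges overlapped. The oocyte at 0 is GV replicate 9, where 3 reads would be 0.0817 CPM. The log2 difference was 0.27 in IVM and 0.08 in CNP_IVM against GV, and 0.06 and -0.13 without that oocyte. With TMM it was 0.47 and 0.56, and with quantile normalization 0.65 and 0.77. The log2 ratio of CDC27 to CDC16 within a library, without GV replicate 9, was 3.0 ± 0.16 in GV (2.79 to 3.22), 4.49 ± 0.52 in IVM (3.96 to 5.36) and 4.88 ± 0.57 in CNP_IVM oocytes (4.07 to 5.68), so that all matured oocytes were above these 6 GV oocytes. In GV replicate 9 itself, with 1 CPM added to both levels, it was 6.62.

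Between the matured groups none of the 4 subunits passed 2-fold. The log2 difference in CNP_IVM against IVM was 0.13 for CDC27, 0.29 for ANAPC4, -0.19 for ANAPC1 and -0.19 for CDC16. The last 2 turned their sign with TMM, to 0.10 and 0.09, and with quantile normalization, to 0.05 and 0.12.

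**Figure D3:**
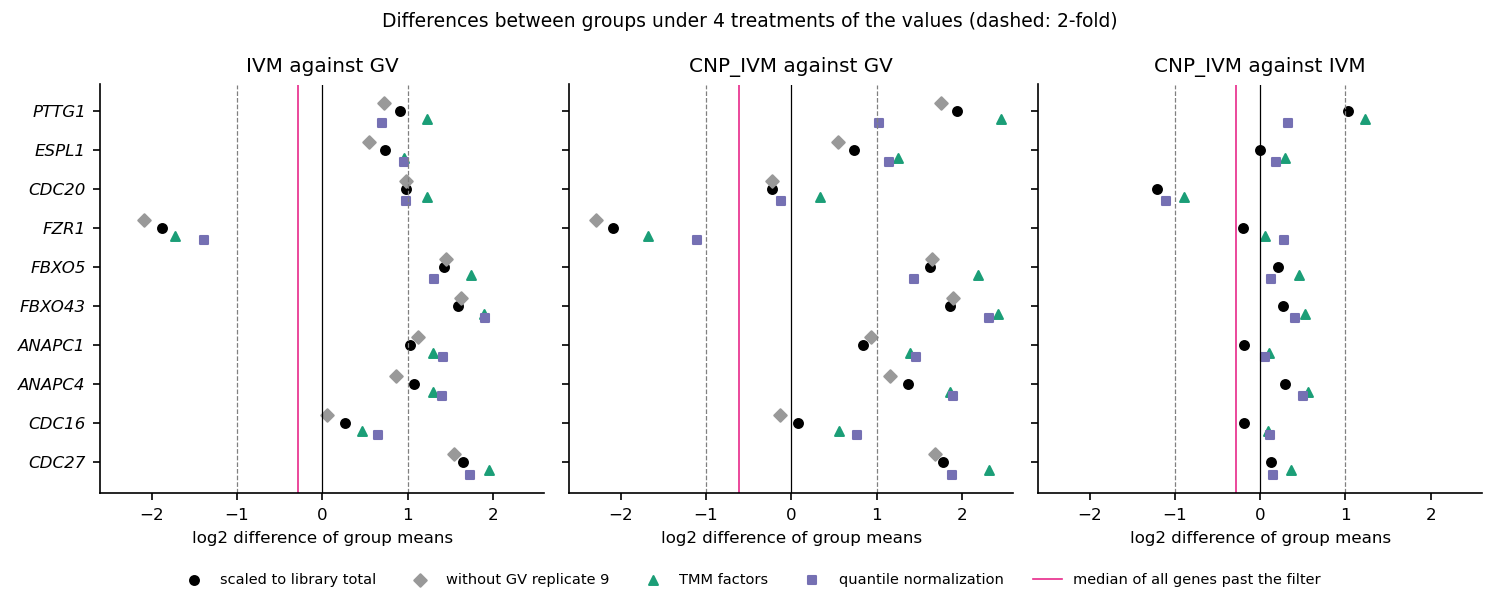
Log2 difference of group means of the 10 genes in the 3 comparisons, as CPM, with TMM, with quantile normalization and without GV replicate 9, beside the median of all genes. FBXO5, FBXO43 and CDC27 stay right of 2-fold against GV and FZR1 stays left of it, while PTTG1 in CNP_IVM against IVM moves from 1.23 with TMM to 0.33 with quantile normalization.

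Among the other 10 subunits of the complex, 1 was higher in IVM than in GV (CDC23), beside 15.9% of all genes, and 4 were lower (ANAPC13, ANAPC2, ANAPC7 and ANAPC10), beside 33.0% of all genes, with a median log2 difference of -0.45. In CNP_IVM against GV, 1 was higher (CDC26), beside 15.3% of all genes, and 6 were lower (the same 4, ANAPC5 and ANAPC16), beside 42.0% of all genes, with a median of -1.36. Shares this near to those of all genes are not a result about these subunits. With TMM the counts were 1 higher and 3 lower in IVM and 3 higher and 5 lower in CNP_IVM, and with quantile normalization 1 and 4, and 2 and 3. Over all 14 subunits, 4 were higher and 4 lower in IVM, and 3 were higher and 6 lower in CNP_IVM, where with TMM 6 were higher and 5 lower.

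ANAPC13, a small subunit that stabilises the complex, was the subunit with the widest gap. It had 242 to 389 CPM in GV, 16.5 to 39.7 CPM in IVM and 19.6 to 34.7 CPM in CNP_IVM oocytes, so that every matured oocyte was far below every GV oocyte, GV replicate 9 included. Its log2 difference from GV was -3.33 in IVM and -3.42 in CNP_IVM. ANAPC2, the cullin subunit of the catalytic core, averaged 10.9 ± 9.17 CPM in GV, 1.36 ± 2.17 in IVM and 0.534 ± 0.392 CPM in CNP_IVM oocytes, with log2 differences of -2.34 and -2.96, the second of which was -2.0 with quantile normalization. GV replicate 9 was at 0 for ANAPC2.

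ANAPC7, a relative of CDC27, averaged 87.3 ± 24.2 CPM in GV, 28.3 in IVM and 27.1 CPM in CNP_IVM oocytes. Its log2 difference was -1.59 and -1.65. ANAPC10, which helps to hold substrates, averaged 243, 101 and 107 CPM, with log2 differences of -1.26 and -1.17. With TMM those of ANAPC10 were -0.95 and -0.64, under 2-fold.

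CDC26, a small partner that stabilises CDC16, was higher in CNP_IVM oocytes (457 to 680 CPM) than in all GV oocytes (103 to 250 CPM), a log2 difference of 1.46, with IVM oocytes between them at 175 to 498 CPM. CDC23, another structural subunit, averaged 8.89 CPM in GV, 20.6 in IVM and 15.9 CPM in CNP_IVM oocytes, and its log2 difference of 1.12 in IVM against GV passed 2-fold and was 1.72 with quantile normalization. The catalytic RING subunit ANAPC11 averaged 81.7, 96.7 and 84.5 CPM and did not pass 2-fold in any comparison.

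In CNP_IVM against IVM, 2 of the other 10 subunits were lower and 0 higher, beside 14.8 and 1.86% of all genes. The mean of ANAPC16 was 57.1 CPM over IVM oocytes, with a range of 37.8 to 83.1 CPM, and 22.9 CPM over CNP_IVM oocytes, with a range of 6.99 to 32.9 CPM, a log2 difference of -1.28 with no overlap between the groups. ANAPC5 averaged 21.1 and 9.11 CPM, a log2 difference of -1.13, with overlapping ranges. With quantile normalization both were under 2-fold, at -0.97 and -0.67.

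**Figure D4:**
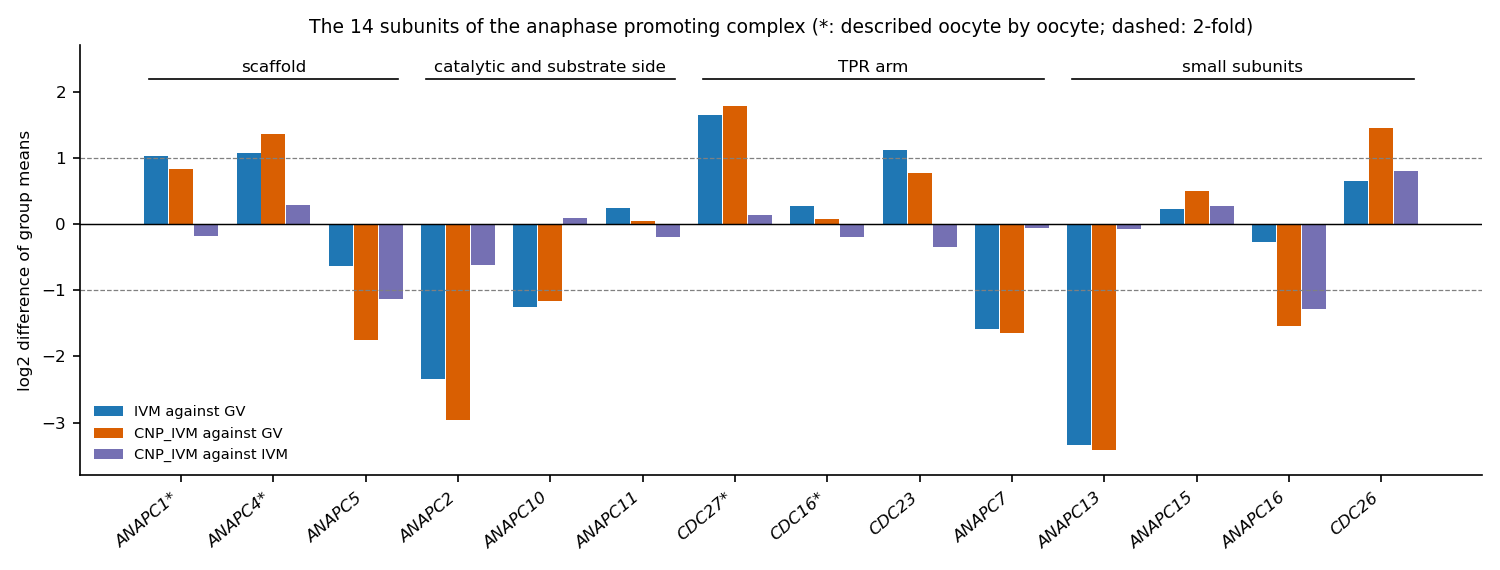
Log2 difference of group means for the 14 subunits of the complex in the 3 comparisons, with asterisks at ANAPC1, ANAPC4, CDC16 and CDC27. Against GV, in IVM and in CNP_IVM oocytes, CDC27 stands at 1.65 and 1.78 at one end and ANAPC13 at -3.33 and -3.42 at the other.

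The enzymes that charge the complex with ubiquitin and the deubiquitinases that oppose it had 4 of 8 genes higher and 0 lower in IVM against GV, beside 15.9 and 33.0% of all genes. CNP_IVM oocytes had 4 higher and 1 lower than GV, beside 15.3 and 42.0% of all genes. USP44, a deubiquitinase that counteracts CDC20-driven ubiquitination in human cells, had 29.7 to 53.9 CPM in GV, 118 to 176 CPM in IVM and 101 to 220 CPM in CNP_IVM oocytes, with log2 differences of 1.89 and 1.93. USP37, which opposes the complex with FZR1 in human cells, averaged 29.3, 81.2 and 121 CPM, with log2 differences of 1.44 and 2.01. UBE2S, which lengthens ubiquitin chains on substrates, was lower in CNP_IVM than in GV, at 84.1 against 230 CPM, a log2 difference of -1.44 that was -0.87 with TMM. UBE2C, which starts those chains, averaged 626, 862 and 554 CPM and did not pass 2-fold in any comparison.

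Among 7 measured genes of the spindle checkpoint, which holds CDC20 inactive until chromosomes are attached, 2 were higher and 1 lower in IVM against GV, beside 15.9 and 33.0% of all genes. Against GV, CNP_IVM oocytes had 1 higher and 2 lower (2 and 2 with TMM), beside 15.3 and 42.0% of all genes. The CNP_IVM shares are near those of all genes and are not a result about the list. MAD1L1, which recruits MAD2 to kinetochores, averaged 150 CPM in GV (38.9 to 255), 10.5 CPM in IVM (2.99 to 20.3) and 3.59 CPM in CNP_IVM oocytes (1.70 to 6.95). Its log2 differences from GV were -3.71 and -5.04 (the second -4.38 with quantile normalization), and every matured oocyte was below every GV oocyte. BUB1B, the checkpoint protein BUBR1, averaged 69.2, 240 and 222 CPM, higher in every matured oocyte than in every GV oocyte, with log2 differences of 1.78 and 1.66. BUB3 averaged 1097, 593 and 325 CPM, lower in every matured oocyte than in every GV oocyte. Its log2 differences from GV were -0.89 and -1.75, the second -1.21 with TMM. MAD2L1 was not analysed here.

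In CNP_IVM against IVM, 3 checkpoint genes were lower and 0 higher, beside 14.8 and 1.86% of all genes. TRIP13, which takes apart the checkpoint complex, had the largest difference of the list. It ranged from 638 to 2093 CPM in IVM and from 201 to 462 CPM in CNP_IVM oocytes, with no overlap, a log2 difference of -1.89. MAD1L1 and MAD2L1BP, the TRIP13 adaptor also called p31comet, had log2 differences of -1.33 and -1.18 with overlapping ranges. With TMM, 2 genes passed 2-fold, and with quantile normalization 1.

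Of 12 other substrates of the complex, 3 were higher and 1 lower in IVM against GV, beside 15.9 and 33.0% of all genes. In CNP_IVM against GV, 2 were higher and 4 lower, beside 15.3 and 42.0% of all genes, and with TMM 4 were higher and 2 lower. The CNP_IVM shares are near those of all genes and are not a result about the substrates. KIF22 (log2 difference -2.85), PLK1 (-2.76) and CCNB2 (-1.41) were lower in every CNP_IVM oocyte than in every GV oocyte. With TMM, CCNB2 was at -0.87, under 2-fold. In IVM against GV, NEK2 was higher (1.55), and PLK1 was the 1 gene lower (-1.53, with overlapping ranges). CCNB1 averaged 1226 ± 245 CPM in GV, 2633 ± 271 in IVM and 2195 ± 182 CPM in CNP_IVM oocytes. Every matured oocyte was above every GV oocyte, and the log2 differences were 1.10, 0.84 and, between the matured groups, -0.26, and with quantile normalization the first was 0.89. TPX2, a spindle assembly factor, averaged 605, 1545 and 1952 CPM, with log2 differences from GV of 1.35 and 1.69.

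In CNP_IVM against IVM, 5 substrates were lower and 0 higher, beside 14.8 and 1.86% of all genes. KIF22, a chromosome-bound kinesin, averaged 166 CPM in IVM oocytes and 43.2 CPM in those of CNP_IVM (log2 difference -1.92), CCNB3, a cyclin needed for anaphase of meiosis I in mouse oocytes, 562 and 199 CPM (-1.49), and AURKA, a spindle kinase, 8204 and 3430 CPM (-1.26). For each of these 3 genes every CNP_IVM oocyte was below every IVM oocyte. NEK2 and PLK1 had log2 differences of -1.25 and -1.23 with overlapping ranges. With TMM, 2 of the 12 substrates passed 2-fold.

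The next list had 10 measured genes: those of cohesin, the ring that separase cuts, of its guardians, and PTTG1IP, a partner of securin. In IVM against GV, 4 were higher and 1 lower, beside 15.9 and 33.0% of all genes. The lower one was PTTG1IP, with a log2 difference of -1.15 (-0.94 with TMM) and overlapping ranges. CNP_IVM oocytes had 6 higher and 0 lower than GV, beside 15.3 and 42.0% of all genes. The median log2 differences were 0.88 and 1.36, beside -0.28 and -0.61 over all genes. SMC3, a core ring subunit, had 30.2 to 281 CPM in GV, 680.1 to 1138 CPM in IVM and 908 to 1272 CPM in CNP_IVM oocytes, with log2 differences of 2.13 and 2.45. RAD21, the mitotic kleisin that separase cuts, averaged 61.4, 219 and 256 CPM, with log2 differences of 1.82 and 2.04. STAG1, a ring-associated subunit, averaged 4.85, 30.6 and 29.9 CPM, with log2 differences of 2.43 and 2.40, the second of which was 3.23 with quantile normalization.

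SGO2, which protects centromeric cohesin from separase in meiosis I, averaged 71.6 CPM in GV, 143 in IVM and 233 CPM in CNP_IVM oocytes. Its log2 differences from GV were 0.99 and 1.69. REC8, the meiotic kleisin, was near the limit of the data, with 0.688 to 2.28 CPM in GV oocytes and at most 1.15 CPM in matured ones, and did not pass the filter. STAG3, another subunit of cohesin, had log2 differences from GV of -0.22 and -0.84 with overlapping ranges, and 0.24 and 0.12 with quantile normalization. RAD21L1 was not analysed here. None of the 10 genes passed 2-fold in CNP_IVM against IVM, while with TMM and with quantile normalization 1 was higher.

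Of 16 measured genes that control FBXO43 or its removal, 1 was higher and 4 lower in IVM against GV, beside 15.9 and 33.0% of all genes. In CNP_IVM against GV, 3 were higher and 7 lower (15.3 and 42.0% of all genes), and in CNP_IVM against IVM 0 were higher and 3 lower (1.86 and 14.8% of all genes). These shares are near those of all genes and are not a result about the list. With TMM these counts were 3 and 3, 5 and 5, and 0 and 0, and with quantile normalization 4 and 1, 4 and 2, and 0 and 1. MOS, the kinase at the head of the pathway that stabilises FBXO43, averaged 2047 ± 1007 CPM in GV, 1759 ± 766 in IVM and 864 ± 374 CPM in CNP_IVM oocytes, with overlapping ranges. Its log2 differences were -0.22, -1.24 and, between the matured groups, -1.02. Without GV replicate 9, at 4283 CPM the highest oocyte, the first was 0.07 and the second -0.95, and with TMM they were 0.06, -0.64 and -0.71.

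CAMK2G, the calmodulin-dependent kinase that triggers FBXO43 destruction at egg activation in mouse, averaged 32.6 CPM in GV, 12.7 in IVM and 8.43 CPM in CNP_IVM oocytes. Every matured oocyte was below every GV oocyte, with log2 differences of -1.29 and -1.83, or -0.86 and -0.99 with quantile normalization. SKP1, the adaptor of the ligase that removes FBXO43, averaged 1151, 2152 and 3664 CPM, with log2 differences from GV of 0.90 and 1.67.

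**Figure D5:**
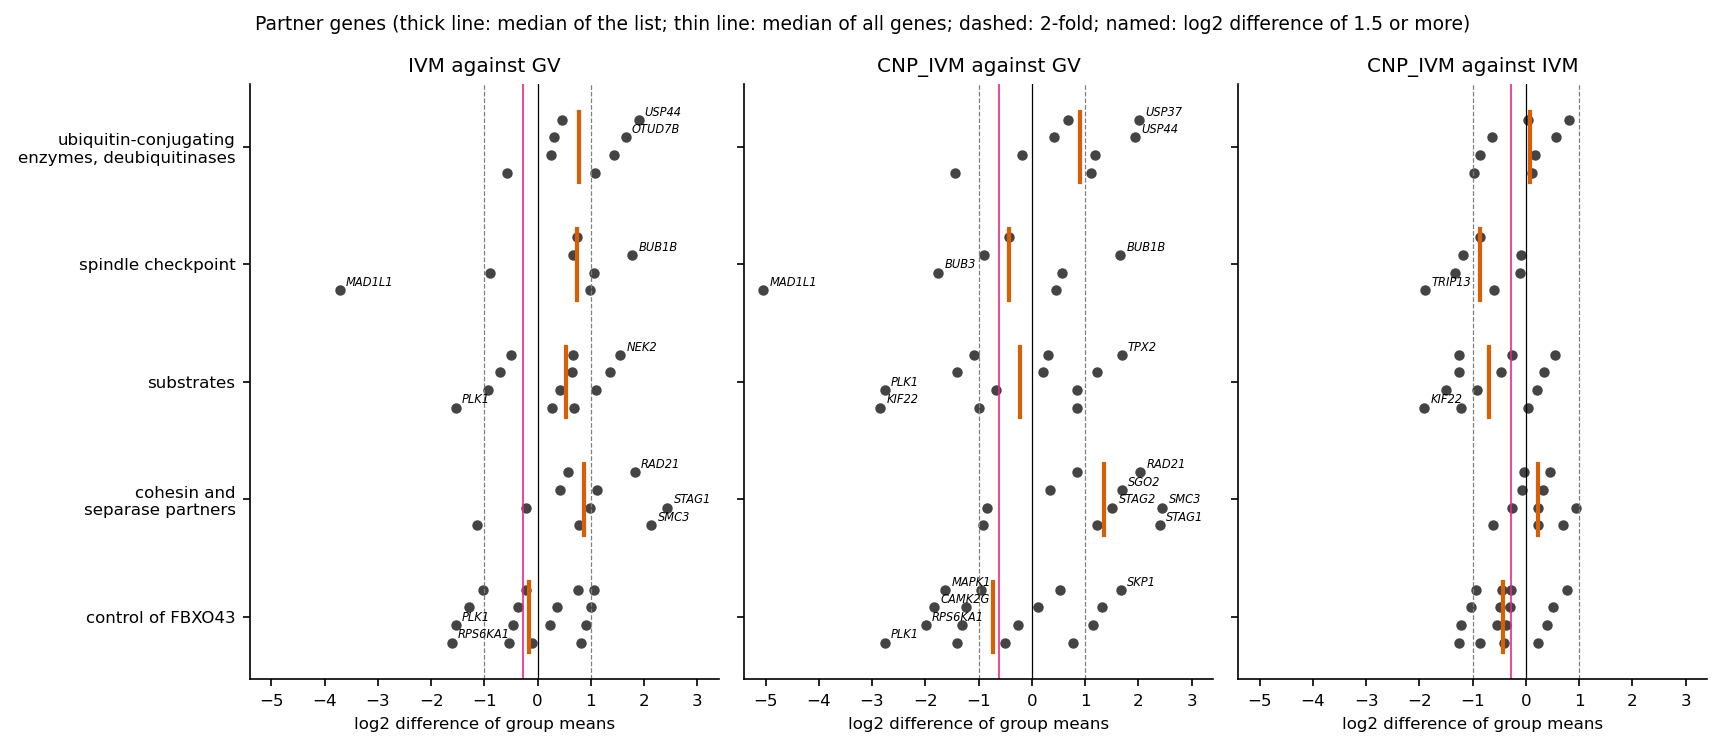
Log2 difference of group means of each measured partner gene by list in the 3 comparisons, with the median of the list and of all genes. Of the 10 genes of cohesin and separase partners, 8 lie right of 0 in both comparisons with GV (medians 0.88 and 1.36), and STAG3 and PTTG1IP lie left. Checkpoint and substrate genes lie mostly to the left in CNP_IVM against IVM (medians -0.87 and -0.69). In that comparison the median was -0.28 over all genes and -0.88 over the 13 oocyte markers, which are not drawn.

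For each of the 10 genes that passed 2-fold in any comparison, the genes with the most similar pattern were found by the root mean square difference of log2(CPM + 1), each centred on its own mean over the 22 oocytes. For PTTG1 these were SKP1 (0.196), CETN2 (0.210) and CETN3 (0.214). Without GV replicate 9 they were TOMM6 (0.126), RBMX2 (0.149) and DPY30 (0.165), so the neighbours depended on that oocyte. TUBB3 (0.202), ASF1B (0.221) and INTS9 (0.235) were nearest to CDC20, and of these TUBB3 averaged 129, 288 and 109 CPM in GV, IVM and CNP_IVM oocytes. CGGBP1 was among the 3 nearest to both inhibitors (0.182 from FBXO5 and 0.282 from FBXO43), but without GV replicate 9 it was among the 3 nearest to neither. ZC2HC1A was among the 3 nearest to both FBXO5 (0.192) and CDC27 (0.164). The nearest to FBXO43 was PPIP5K2 (0.236), to ANAPC1 RNPS1 (0.256), to ANAPC4 NDRG3 (0.310) and to FZR1 TMPRSS9 (0.454). Without GV replicate 9 the nearest gene was ADIPOR2 for CDC20, ZC2HC1A for FBXO5, TRIP12 for ANAPC4 and DNAJC14 for FZR1, and it stayed PPIP5K2 for FBXO43, RNPS1 for ANAPC1 and ZC2HC1A for CDC27.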

How the data were processed

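Denuded oocytes were frozen one by one, and libraries were made with the poly(A)-primed SMART-Seq v4 kit and Nextera XT, per the labels' protocols. HISAT2 2.2.1, featureCounts 2.0.1, edgeR, FastQC and Trim Galore 0.6.7 are listed in the submitters' processing notes without role or order, as is the mouse build GRCm39. The gene names are cattle symbols (13356 of 13502 match RefSeq ARS-UCD2.0, as do all 10 genes described), so no coordinates are given. The authors deposited 1 table whose values are CPM although its name says TPM: with a tolerance of 0.01 read, 100% of values are whole reads. Strand use in counting is not given in the sources used here.

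The members and gene lists were chosen with earlier results of these data known. Log2 differences of group means were taken after adding 1 CPM (this makes differences of low genes look smaller) and over genes reaching 1 CPM in 6 or more libraries. Named genes are the 10, up to 4 per list and comparison with the largest difference among genes of at least 10 CPM in either group, CCNB1 and MOS, and up to 3 most similar genes for each. ANAPC11 and REC8 fall outside this rule and were named after their values were seen. The 3 comparisons, alternative pseudocount (0.1 CPM), summaries by median or mean of log2 values, filters, TMM (edgeR 4.0.16 in R 4.3.3), quantile normalization and each oocyte left out were computed with Python 3.11.15, numpy 2.4.6 and pandas 2.3.3. A count test was not run, since each group counts as 1 sample. The steps were tested on simulated data. No pair of libraries of a group was a copy: chi-square per degree of freedom was 38.0 or more.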

Additional observations from a re-analysis of the deposited data

Results flagged for a closer look

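Of 156 sets of 7 or 8 oocytes (52 genes in 3 groups), 27 had 1 oocyte whose gap to its nearest neighbour was wide for the range of its group by Dixon's criterion, which chance meets in about 1 of 20 sets. Of the 27, 19 were at GV replicate 9, the oocyte whose treatment label goes against its title. Among the 10 genes it was low for PTTG1 (1301 CPM, others 8030 to 11580), ANAPC4 (0.0545 CPM, others 22.6 to 36.9) and CDC16 (0 CPM, others 17.9 to 25.4).

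Among partner genes GV replicate 9 was low for ANAPC7 (36.6 CPM), ANAPC16 (40.3 CPM), USP37 (5.48 CPM), UBE2C (229 CPM), BUB1B (8.37 CPM), BUB1 (8.67 CPM), TPX2 (236 CPM), CCNB3 (149 CPM), RAD21 (22.2 CPM), SMC1B (22.3 CPM), CUL1 (0.763 CPM) and SKP1 (159 CPM). It was high for MOS (4283 CPM), KIF22 (552 CPM), AURKA (9106 CPM) and PPP2CA (831 CPM).

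The other 8 were spread over 7 oocytes. IVM replicate 9 was high for ANAPC4 (71.2 CPM, others 45.9 to 53.8), and IVM replicate 5 for CDC27 (803 CPM, others 426 to 603). IVM replicate 8 was high for ANAPC2 (6.51 CPM) and MAD2L1BP (135 CPM). In CNP_IVM, replicate 1 was high for MOS (1627 CPM), replicate 3 high for ANAPC2 (1.36 CPM) and replicate 7 low for ANAPC13 (19.6 CPM). GV replicate 1 was high for STAG1 (7.49 CPM).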

How the results depend on the processing

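Of the 30 differences of the 10 genes in 3 comparisons, 24 kept their sign, 22 their side of 2-fold and 16 both under every alternative run. FBXO5, FBXO43, CDC27 and FZR1 kept both against GV, as did PTTG1 and ANAPC4 in CNP_IVM against GV. The count of genes higher in CNP_IVM against IVM, 1 as reported, was 0 with medians of oocytes and with quantile normalization, and 0 to 1 with 1 oocyte left out (0 without CNP_IVM replicate 2 or IVM replicate 1, 8 or 9). The count lower in that comparison, 1 as reported, was 0 with TMM. In both cases the cause was not tested. The log2 difference of PTTG1 behind the first count ran from 0.33 to 1.23, that of CDC20 behind the second from -1.33 to -0.89. Against GV, 7 genes were higher with TMM in both matured groups, against 5. PTTG1 in CNP_IVM against GV was 1.03 and FZR1 -1.11 with quantile normalization. In IVM against GV, PTTG1 ran from 0.70 to 1.23 and CDC20 from 0.82 to 1.23. Signs turned for CDC20 and CDC16 in CNP_IVM against GV and for ESPL1, FZR1, ANAPC1 and CDC16 in CNP_IVM against IVM, all under 2-fold there. No paired analysis was possible because no label ties an oocyte to a donor or a culture. Depth limits FZR1, REC8 and ANAPC2, which have few reads in some oocytes, and the SMART-Seq v4 reads are amplified copies.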
